A study of Mus musculus with 8 samples.

Results

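Inflammatory cytokines, chemokines, their receptors and the enzymes that process or accompany them were described here through the open chromatin around 45 listed mouse genes. A region of the deposited tables was a member if the nearest RefSeq protein-coding gene within 50 kb was one of these genes. This rule uses only distance and no read count, and it gave 199 of 61196 regions, linked to 42 of the 45 genes. Ccl22, Cxcl10 and Cxcl16 had no linked region. Nearness is not evidence that a region acts on the gene, and 3 of the 199 regions were equally near to another gene.

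The assay was ATAC-seq, in which the Tn5 transposase inserts sequencing adapters into accessible DNA, so a higher read count means a more open region. The 8 libraries came from mouse bone marrow progenitor cells in 4 groups, named cMoP, GMP-MoP, proNeu1 and proNeu2, with 2 libraries in each, labelled biological replicates 1 and 2. In the field, cMoP is the usual name of the common monocyte progenitor and proNeu that of early neutrophil-committed progenitors. The labels expand none of these names, and the title of the series sets GMP-MoP against proNeu1. All groups share the tissue, a sort of 5000 cells per tube and the Illumina tagmentation kit. No treatment, strain, age or sort gate is given in the sources used here, and nothing says whether the libraries of a group came from separate animals, so the p-values measure only the spread between these libraries, which may be technical.

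Cytokines such as interleukin 1, interleukin 6 and tumour necrosis factor are made by monocytes, macrophages and neutrophils after pathogen or damage signals, act on receptors of nearby or distant cells, and are held in check by decoy receptors and antagonists. Chemokines are small secreted proteins that draw leukocytes along gradients, the CXC class with Cxcl1, Cxcl2 and Cxcl3 mainly drawing neutrophils and the CC class with Ccl2 mainly drawing monocytes. Many of these genes are silent in resting progenitors but lie in chromatin that may already be open before a signal arrives, with transcription factors of the NF-kB, C/EBP, AP-1, IRF and PU.1 families known to bind near them.

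Of the 199 regions, 26 overlapped a RefSeq promoter window of the linked gene (250 bases before to 50 after a start site), 67 lay elsewhere in the gene and 106 outside it. Outside positions made up 53.3% of member regions and 26.7% of all regions. The shares have unlike bases, since 11.9% of all regions had no linked gene, which by the rule no member region could lack. The promoter table held 34 of the 42 linked genes; Ccl2, Ccl4, Ccl5, Ccl7, Il15, Il23a, Osm and Tnfsf9 are placed by the gene interval alone. Regions were tested with edgeR's quasi-likelihood F test over all 47506 regions that passed a filter on low counts. That filter kept 159 of the 199 regions, for 40 genes. A region with very few reads in a group passed it only through libraries of the other groups, where it was higher. The single region of Ccl7 and the single region of Il18bp did not pass it. Levels are given as CPM, read counts scaled with TMM so that libraries of unequal depth compare, and a region was called changed at an adjusted p (Benjamini-Hochberg over all tested regions) under 0.05.

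Between proNeu1 and cMoP, 8 of the 25 tested promoter regions passed the test, or 32%, beside 43.1% of the promoter regions of all genes. The 250 bases before the start site are printed for 6 of their genes. Il18, Nlrp3, Tnfsf13b, Il6 and Ptgs2 were called less open there in proNeu1 and Il6ra more open. The calls at Tnfsf13b, Il6, Ptgs2 and Il6ra ended when 1 library was left out, as given below. The sequences are RefSeq's, on GRCm38.p6 and 5′ to 3′ on the strand of the gene. They were searched on both strands for NF-kB (GGGANNTTCC), IRF (GAAANNGAAA), C/EBP (TTGCNNAA), AP-1 (TGANTCA) and PU.1 (GAGGAAG) letters, and capitals mark a match.
Il18 (chr9:50554450-50554699, plus strand): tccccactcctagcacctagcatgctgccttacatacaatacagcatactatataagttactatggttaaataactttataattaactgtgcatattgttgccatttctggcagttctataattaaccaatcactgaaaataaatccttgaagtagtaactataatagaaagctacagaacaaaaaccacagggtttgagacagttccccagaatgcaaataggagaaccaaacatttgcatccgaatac
Nlrp3 (chr11:59541319-59541568, plus strand): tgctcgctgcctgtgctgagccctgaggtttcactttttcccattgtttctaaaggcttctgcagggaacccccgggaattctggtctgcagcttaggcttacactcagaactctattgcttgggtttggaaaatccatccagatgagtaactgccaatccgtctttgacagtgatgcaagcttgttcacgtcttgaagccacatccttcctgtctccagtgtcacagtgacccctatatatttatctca
Tnfsf13b (chr8:10006383-10006632, plus strand): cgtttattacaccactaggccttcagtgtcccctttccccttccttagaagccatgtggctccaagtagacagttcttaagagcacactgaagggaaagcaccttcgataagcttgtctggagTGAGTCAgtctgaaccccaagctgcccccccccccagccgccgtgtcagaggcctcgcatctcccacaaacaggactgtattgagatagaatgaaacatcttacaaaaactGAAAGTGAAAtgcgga
Il6 (chr5:30012864-30013113, plus strand): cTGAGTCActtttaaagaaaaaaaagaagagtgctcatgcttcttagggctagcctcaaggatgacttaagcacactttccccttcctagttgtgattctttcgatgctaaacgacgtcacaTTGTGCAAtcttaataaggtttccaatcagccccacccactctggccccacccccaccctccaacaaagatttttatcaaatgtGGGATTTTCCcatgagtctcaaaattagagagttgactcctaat
Ptgs2 (chr1:150099781-150100030, plus strand): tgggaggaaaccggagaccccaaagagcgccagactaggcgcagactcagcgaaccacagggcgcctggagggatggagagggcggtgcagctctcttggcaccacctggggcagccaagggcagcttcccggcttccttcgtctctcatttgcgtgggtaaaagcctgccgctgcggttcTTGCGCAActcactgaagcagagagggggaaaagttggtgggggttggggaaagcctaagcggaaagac
Il6ra (chr3:89913197-89913446, minus strand): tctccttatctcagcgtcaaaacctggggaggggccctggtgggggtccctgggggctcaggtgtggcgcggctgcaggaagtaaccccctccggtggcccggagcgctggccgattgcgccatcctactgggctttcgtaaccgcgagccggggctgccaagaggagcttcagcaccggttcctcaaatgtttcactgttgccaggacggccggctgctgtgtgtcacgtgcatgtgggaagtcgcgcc

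The Il6 promoter held the NF-kB letters GGGATTTTCC at 44 to 35 bases before the start, the C/EBP letters TTGTGCAA at 128 to 121 and the AP-1 letters TGAGTCA at 249 to 243. In the Tnfsf13b promoter, IRF letters lay at 16 to 7 bases and AP-1 letters at 127 to 121 before the start. Ptgs2 held C/EBP letters, TTGCGCAA, at 69 to 62 bases. None of the 5 searched letters was found in the windows of Il18, Nlrp3 and Il6ra, which says nothing of binding. NF-kB letters were in 3 of the 25 tested member promoters and in 1.19% of 21263 RefSeq promoter windows of the same length. C/EBP letters were in 5 of 25 against 9.09%, AP-1 letters in 3 against 6.13%, PU.1 letters in 3 against 10.3% and IRF letters in 2 against 2.96%. The NF-kB matches lay in Il6, Csf1 and Cxcl2, and the pair of matches in Cxcl2 overlap each other. Base composition also differed among the printed windows. Il18 had 35.6% G and C with 1 CpG, Il6 had 42.8% with 3, Nlrp3 had 48.0% with 4 and Tnfsf13b had 50.4% with 6. Ptgs2 stood at 61.6% with 13 CpGs and Il6ra at 65.2% with 18, beside a median of 55.6% G and C over all windows. The called region covered all 250 bases in these windows other than Il18, where it covered the 115 bases nearest the gene.

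**Figure D1:**
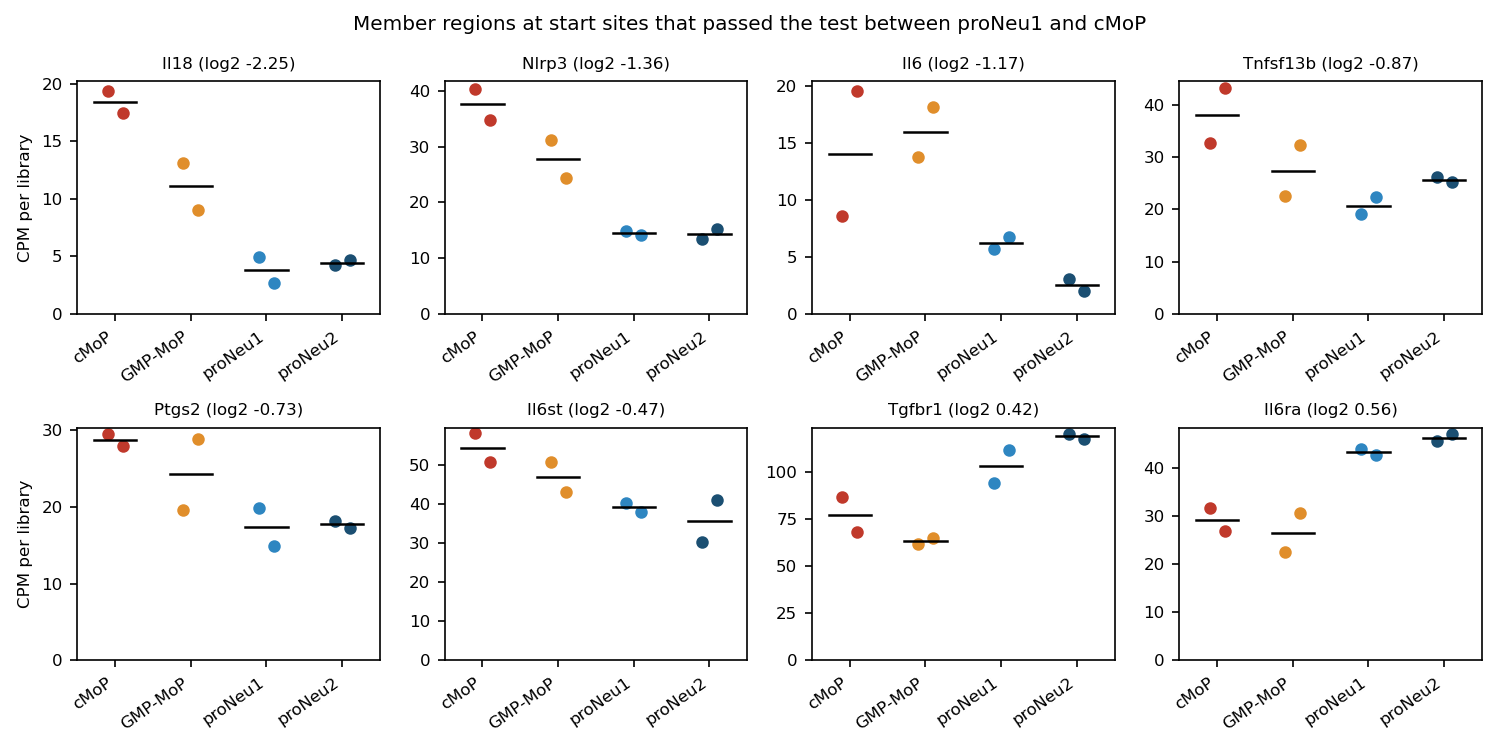
CPM in each library (points) and group mean (bar) of the 8 member regions at start sites that passed the test between proNeu1 and cMoP, each panel with its log2 fold change and a vertical axis from 0. Il18, Nlrp3, Il6, Tnfsf13b, Ptgs2 and Il6st are lower in proNeu1 than in cMoP, and Tgfbr1 and Il6ra are higher.

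The summed region counts of the libraries ran from 1388525 to 1907810, with a median region count of 11 to 18, and a tested member region held a median of 135 reads over all 8 libraries. Among markers of the cell types a progenitor sort could hold, the neutrophil progenitor, monocyte progenitor and dendritic sums moved with the groups. The summed level at 6 neutrophil progenitor markers (Elane, Mpo, Cebpe, Gfi1, S100a9, Ngp) was 252 to 297 CPM in cMoP, 365 to 366 in GMP-MoP, 630 to 718 in proNeu1 and 788 to 799 in proNeu2. At 6 monocyte progenitor markers it was 605 to 636, 505 to 571, 439 to 474 and 431 to 437 CPM in the same order, and at 4 dendritic markers 424 to 437, 324 to 345, 222 to 229 and 205. Mature macrophage markers summed to 349 to 352, 340 to 362, 300 to 307 and 259 to 307 CPM. B cell markers were lowest in cMoP, at 47.8 to 53.8 CPM, with 65.8 to 71.9 in GMP-MoP, 62.4 to 75.1 in proNeu1 and 55.9 to 61.1 in proNeu2. Mast, basophil and eosinophil markers were at 25.8 to 30.6, 38.5 to 39.1, 31.9 to 40.7 and 24.9 to 33.9 CPM in the same order. Over all libraries T and NK markers ran from 37.0 to 48.0 CPM and erythroid and megakaryocyte markers from 90.7 to 119, with no region at Cd79a, Cd3e or C1qa. The part of any of these cells in the differences below was not tested, and in sorted pools fewer cells with an open site and less opening per cell cannot be told apart.

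Between proNeu1 and cMoP, member regions were more often less open in proNeu1 than more open. Of 159 tested regions, 49 were lower in proNeu1 and 21 higher, where the whole table had 21.9% lower and 20.6% higher. As shares, 30.8% of member regions were lower and 13.2% higher. The median log2 fold change was -0.20 over members and 0.02 over all regions. By gene, 16 of 40 had only lower calls, 10 only higher, 7 both and 7 neither. Thus 23 had at least 1 lower call and 17 at least 1 higher, beside about 4796 and 6272 of 14612 genes in the whole table. Genes differ in their number of tested regions, which these counts do not take into account. Genes with only lower calls included Ccl2, Il12b, Il18, Nlrp3, Tnfsf9 and Tgfb1, and those with only higher calls Cxcl1, Cxcl3, Ccl3, Il1rn, Osm and Ptges. A call does not stand for all regions of its gene: the summed mean at Cxcl1 was 24.0 CPM in cMoP and 22.9 in proNeu1. In all 70 called regions the libraries of proNeu1 and cMoP did not overlap. Among all 159 tested member regions, called or not, 69 stood apart with proNeu1 lower and 42 with proNeu1 higher. The share of all regions that stood apart was not computed, so these counts alone do not show a difference of the members. Of the 70 calls, 26 (20 lower, 6 higher) passed in each of 15 alternative fits, which are called kept below, and 27 passed with DESeq2; 39 ended when 1 library was left out. These 15 are 2 other scalings, DESeq2, no filter, the replicate block, each of 8 libraries left out, a fit of the 2 groups alone and the proNeu2 libraries summed; the shorter links and the minimum fold, which change the members or the rule and not the fit, are not among them. Where a call named with its values was not kept, the settings that ended it follow. Regions named beyond each gene's most open one and the 8 of smallest adjusted p in each comparison were chosen after their values were seen.

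**Figure D2:**
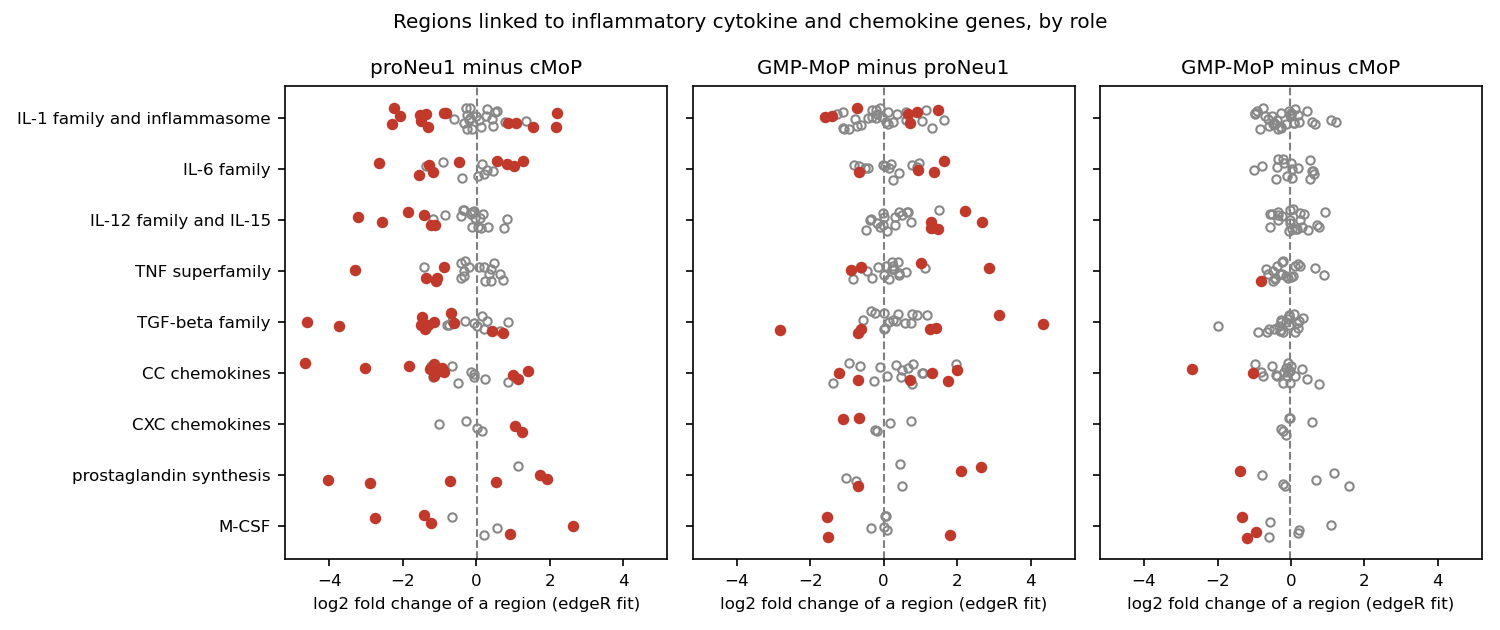
Each point is 1 tested member region, placed by its log2 fold change from the edgeR fit, in rows by the role of its gene; filled points passed the test and open points did not. For proNeu1 minus cMoP the filled points of the TNF, IL-12 and CC chemokine rows lie mostly left of 0, and both filled CXC chemokine points lie right of it.

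At promoters, 2 of 25 member regions were higher in proNeu1 and 6 lower, while among 8831 promoter regions of all genes 36.3% were higher and 6.79% lower. The split over all promoters depended on the scaling: with total counts 27.8% were higher and 8.75% lower, and with loess offsets 15.9% and 11.8%. Member promoters had 0 higher and 6 lower under both of these, so the calls at Tgfbr1 and Il6ra ended there. Total-count scaling moved the median over all regions from 0.02 to -0.08 for proNeu1 against cMoP and from 0.01 to 0.14 for GMP-MoP against proNeu1. For genes in the promoter table, 11 of 38 member regions elsewhere inside genes were lower and 5 higher, or 28.9% and 13.2%, near the 25.6% and 17.7% of all regions placed there. Outside genes 20 of 72 were lower and 13 higher, or 27.8% and 18.1%, near the 23.8% and 15.98% of all such regions. These position counts leave out the genes without a promoter entry, which are part of the member totals above. Of those genes, Ccl2, Ccl4, Ccl5, Il15 and Tnfsf9 had only lower calls, Osm only higher ones and Il23a none.

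The smallest adjusted p was at Tnfrsf1b, which encodes TNF receptor 2, the form found mainly on leukocytes. A region 12.9 kb after the start site, inside the gene (chr4:145233295-145234613), had 79.0 and 59.1 CPM in cMoP, 53.0 and 48.8 in GMP-MoP, 8.50 and 5.43 in proNeu1 and 3.04 and 3.98 in proNeu2. Both cMoP and both GMP-MoP libraries stood far above all 4 proNeu libraries. The difference of proNeu1 from cMoP was log2 fold change -3.30 ± 0.27 SE, adjusted p = 1.03e-24 and was kept. At the same gene the promoter region had 41.9 and 39.6 CPM in cMoP, 38.5 and 56.1 in GMP-MoP, 50.3 and 45.4 in proNeu1 and 61.4 and 46.5 in proNeu2, and the difference of proNeu1 from cMoP did not pass (log2 fold change 0.23 ± 0.19 SE, adjusted p = 0.350). The most open Tnfrsf1b region, 5.8 kb after the start site, had 62.4 and 58.6 CPM in cMoP and 63.0 and 63.8 in proNeu1. Its difference was 0.07 on the log2 scale (adjusted p = 0.774). The other 7 regions of this gene did not pass the test in either direction or were too low to test.

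Among the other TNF family genes, Tnfsf9 and Tnfsf13b were lower in proNeu1, and 0 of the 21 tested regions of the family were higher by edgeR, with 1 at an unadjusted p under 0.05 and 0 by DESeq2. Over the family 23.8% of tested regions were lower, near the 21.9% of all regions, of which 20.6% were higher. Tnfsf9 encodes the 4-1BB ligand, a costimulator of T cells, and each of its 3 regions was lower. The call at the region in the Tnfsf9 gene ended when 1 library was left out. The most open Tnfsf9 region, 4.8 kb from the gene interval (chr17:57112591-57113758), had 37.6 and 43.8 CPM in cMoP, 26.1 and 35.7 in GMP-MoP, 14.2 and 17.0 in proNeu1 and 9.73 and 9.96 in proNeu2. The cMoP libraries were highest, GMP-MoP was between, and no proNeu library reached either (log2 fold change -1.38 ± 0.25 SE, adjusted p = 9.49e-07, kept). The promoter region of Tnfsf13b, which encodes the B cell survival factor BAFF and whose window is printed above, had 32.8 and 43.3 CPM in cMoP, 22.5 and 32.3 in GMP-MoP, 19.1 and 22.4 in proNeu1 and 26.1 and 25.2 in proNeu2. That fall was log2 fold change -0.87 ± 0.24 SE, adjusted p = 0.00128, and it ended without cMoP library 2 (adjusted p = 0.0809). Tnf itself, the founding cytokine of the family, had 23.1 and 18.5 CPM in cMoP, 14.5 and 14.7 in GMP-MoP, 26.2 and 28.5 in proNeu1 and 37.7 and 28.5 in proNeu2 at its most open region (chr17:35199952-35201190). Both proNeu1 libraries were above both cMoP libraries, but the difference did not pass (log2 fold change 0.40 ± 0.25 SE, adjusted p = 0.199). Tnfrsf1a, the widely expressed TNF receptor 1, had 44.1 and 40.6 CPM in cMoP, 39.2 and 34.6 in GMP-MoP, 63.7 and 48.2 in proNeu1 and 57.2 and 51.1 in proNeu2 at its promoter region (adjusted p = 0.0733). Tnfsf10, the death ligand TRAIL, had 16.1 and 22.7 CPM in cMoP, 14.5 and 20.4 in GMP-MoP, 17.7 and 12.9 in proNeu1 and 15.2 and 19.2 in proNeu2 at its promoter region and no called region among 4.

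**Figure D3:**
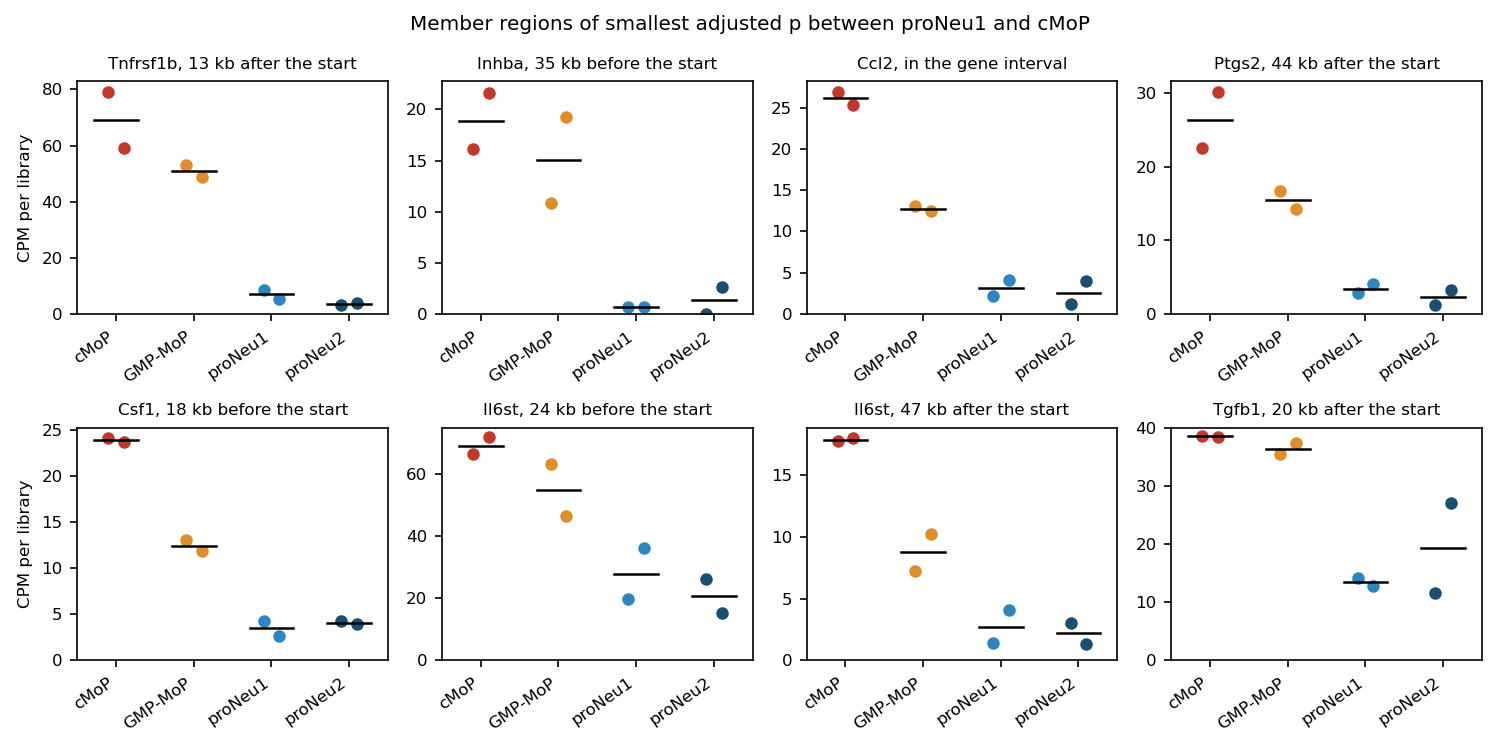
CPM in each library (points) and group mean (bar) for the 8 member regions of smallest adjusted p between proNeu1 and cMoP, with vertical axes from 0. In each panel both cMoP libraries lie above both proNeu1 libraries, and the GMP-MoP mean lies between the means of these groups.

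In the TGF-beta family, 9 of 22 tested regions were lower in proNeu1 and 2 higher. As shares these are 40.9% and 9.09%, beside 21.9% and 20.6% of all regions. Inhba encodes the beta A subunit of activins and inhibins. A region 35.01 kb before the start site (chr13:15976398-15977276) had 30 and 41 reads in cMoP, 15 and 34 in GMP-MoP, 1 and 1 in proNeu1 and 0 and 4 in proNeu2. The proNeu1 libraries held 1 read each, against 71 reads in all in cMoP, a ratio of 27.3 of cMoP to proNeu1 (95% exact counting interval 7.28 to 230; adjusted p = 2.73e-11, kept). Its promoter region had 30.1 and 36.4 CPM in cMoP, 31.2 and 24.4 in GMP-MoP, 29.0 and 25.1 in proNeu1 and 32.8 and 29.2 in proNeu2 and did not pass (log2 fold change -0.30 ± 0.23 SE, adjusted p = 0.294). Tgfb1, the main TGF-beta ligand of blood cells, was lower at a region 1.4 kb past the end of the gene (chr7:25706507-25707505), with 38.7 and 38.5 CPM in cMoP, 35.6 and 37.4 in GMP-MoP, 14.2 and 12.9 in proNeu1 and 11.6 and 27.2 in proNeu2. Both cMoP libraries were above all 4 proNeu libraries, though proNeu2 library 2 stood apart from proNeu2 library 1 (log2 fold change -1.51 ± 0.26 SE, adjusted p = 3.52e-07, kept). The Tgfb1 promoter region had 55.4 and 54.4 CPM in cMoP, 61.7 and 45.4 in GMP-MoP, 60.9 and 71.9 in proNeu1 and 81.5 and 73.7 in proNeu2, and the difference did not pass (adjusted p = 0.188).

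The TGF-beta receptors went both ways. Tgfbr1, the signalling type I receptor, was higher in proNeu1 at its promoter region, with 86.5 and 68.1 CPM in cMoP, 61.7 and 65.2 in GMP-MoP, 94.2 and 112 in proNeu1 and 120 and 117 in proNeu2. This rise was small (log2 fold change 0.42 ± 0.15 SE, adjusted p = 0.0160) and ended without cMoP library 2 (adjusted p = 0.226), without proNeu1 library 2 (0.184), with DESeq2 (0.196), with scaling by total counts and with loess scaling. Tgfbr2, the type II receptor that binds the ligand, had 16 linked regions, of which 7 fell and 1 rose; the lower ones lay inside the gene or just before it and the higher one past its end. Lower calls 76.3, 53.7, 51.9 and 29.6 kb after the start site and 3.04 kb before it ended when 1 library was left out. Among the lower regions there was also this one. The one with fewest proNeu1 reads, 8.9 kb after the start site (chr9:116166142-116166777), had 21 and 17 reads in cMoP, 7 and 14 in GMP-MoP, 1 and 1 in proNeu1 and 3 and 4 in proNeu2. Because it was picked for its low proNeu1 count, its values do not stand for the other Tgfbr2 regions. The ratio of cMoP to proNeu1 was 14.6 (95% exact counting interval 3.78 to 125; adjusted p = 6.46e-06, kept). The most open Tgfbr2 region, 90.8 kb after the start site and past the end of the gene, had 34.4 and 36.9 CPM in cMoP, 44.3 and 34.0 in GMP-MoP, 65.9 and 52.2 in proNeu1 and 52.9 and 47.1 in proNeu2. It rose by 0.72 on the log2 scale (adjusted p = 0.000899). This call ended with DESeq2 (adjusted p = 0.0629) and with loess scaling. The Tgfbr2 promoter region, with 51.1 and 39.1 CPM in cMoP and 53.8 and 38.0 in proNeu1, did not pass (adjusted p = 0.935).

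CC chemokine regions were lower in proNeu1 for 9 of 21 tested and higher for 3. As shares these are 42.9% and 14.3%, beside 21.9% and 20.6% of all regions. Ccl2, the monocyte attractant MCP-1, gave 5 of the lower regions. The lower calls 27.96 and 19.9 kb from the Ccl2 gene interval ended when 1 library was left out. The region in the Ccl2 gene (chr11:82035029-82035863) had 26.9 and 25.3 CPM in cMoP, 13.1 and 12.5 in GMP-MoP, 2.12 and 4.07 in proNeu1 and 1.22 and 3.98 in proNeu2, an order in which no 2 of cMoP, GMP-MoP and proNeu1 overlapped (log2 fold change -3.03 ± 0.41 SE, adjusted p = 5.26e-11, kept). A region 13.5 kb from the gene interval (chr11:82021222-82022095) had 18 and 22 reads in cMoP, 1 and 4 in GMP-MoP, 1 and 0 in proNeu1 and 1 and 0 in proNeu2. With 1 read in proNeu1, the ratio of cMoP to proNeu1 was 30.8 (95% exact counting interval 5.21 to 1245; adjusted p = 1.79e-06, kept). The most open Ccl2 region, 30.1 kb from the gene interval (chr11:82004509-82005460), had 38.7 and 45.4 CPM in cMoP, 33.4 and 30.0 in GMP-MoP, 18.4 and 19.7 in proNeu1 and 7.30 and 12.6 in proNeu2 (log2 fold change -1.14 ± 0.24 SE, adjusted p = 2.11e-05, kept). Ccl4, the inflammatory chemokine MIP-1 beta, had 21.0 and 20.6 CPM in cMoP, 7.99 and 14.7 in GMP-MoP, 4.25 and 14.2 in proNeu1 and 10.3 and 11.3 in proNeu2 at its most open region (chr11:83648913-83650101). It fell by 1.15 on the log2 scale (adjusted p = 0.00265), and the proNeu1 libraries were far apart: the call ended without proNeu1 library 1 (adjusted p = 0.305) and with DESeq2 (0.0960). Ccl5, known as RANTES, fell at a region 13.6 kb from the gene interval (log2 fold change -1.84 ± 0.52 SE, adjusted p = 0.00184). This call ended with DESeq2 (adjusted p = 0.0551). Its most open region, with 11.3 and 6.33 CPM in cMoP and 9.92 and 10.9 in proNeu1, did not pass (adjusted p = 0.650).

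In the same cluster on chromosome 11, a region linked to Ccl3, MIP-1 alpha, went the other way. The lower region linked to Ccl4 above (chr11:83648913-83650101) also covers the Ccl3 start site. The opposite directions given for Ccl3 and Ccl4 therefore depend on how regions were linked to genes. The most open region linked to Ccl3, 8.8 kb after the start site (chr11:83639474-83641619), had 24.7 and 19.0 CPM in cMoP, 31.2 and 23.8 in GMP-MoP, 42.5 and 45.4 in proNeu1 and 54.1 and 47.1 in proNeu2. Both proNeu groups stood above both cMoP libraries (log2 fold change 1.01 ± 0.22 SE, adjusted p = 6.58e-05, kept). Ccl9 had 6.99 and 11.1 CPM in cMoP, 7.26 and 9.64 in GMP-MoP, 20.5 and 19.7 in proNeu1 and 17.6 and 16.6 in proNeu2 at a region just past its gene (log2 fold change 1.14 ± 0.33 SE, adjusted p = 0.00229). The rise ended without cMoP library 1 (adjusted p = 0.0604) and with DESeq2 (0.0927). Its promoter region, with 22.6 and 20.1 CPM in cMoP and 19.1 and 19.7 in proNeu1, did not pass (adjusted p = 0.721). Ccl6, a chemokine of the same mouse subfamily as Ccl9, had a lower region 25.8 kb before the start site, its most open one, with 19.4 and 19.5 CPM in cMoP, 13.8 and 15.9 in GMP-MoP, 10.6 and 8.14 in proNeu1 and 9.12 and 9.29 in proNeu2. That difference was log2 fold change -1.05 ± 0.33 SE, adjusted p = 0.00611 and ended without proNeu1 library 2 (adjusted p = 0.111) and with DESeq2 (0.0961). A second Ccl6 region, 12.2 kb before the start site, was higher (log2 fold change 1.41 ± 0.43 SE, adjusted p = 0.00465) and this call ended with DESeq2 (adjusted p = 0.102). The single Ccl7 region held 4 to 12 reads in each library and was not tested.

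The CXC chemokines, which here are the neutrophil attractants Cxcl1, Cxcl2 and Cxcl3 and the T cell attractant Cxcl9, had 2 higher and 0 lower regions of 6 tested. Over all regions 20.6% were higher and 21.9% lower, and 6 regions are too few to read a direction of the class from. Cxcl3 rose at its single region, 3.7 kb after the start site (chr5:90789117-90790496), with 21.0 and 20.6 CPM in cMoP, 29.8 and 32.3 in GMP-MoP, 48.2 and 50.9 in proNeu1 and 38.9 and 48.5 in proNeu2. The cMoP libraries were the lowest of the 8 (log2 fold change 1.25 ± 0.22 SE, adjusted p = 4.42e-07, kept). Cxcl1, also known as KC, had 7.53 and 5.81 CPM in cMoP, 4.36 and 7.94 in GMP-MoP, 13.5 and 14.2 in proNeu1 and 11.6 and 11.3 in proNeu2 at a region 9.3 kb before the start site (log2 fold change 1.05 ± 0.38 SE, adjusted p = 0.0193). That rise ended without cMoP library 2 (adjusted p = 0.129), without proNeu1 library 2 (0.0802) and with DESeq2 (0.218). The promoter region of Cxcl2, also known as MIP-2, had 25.3 and 16.4 CPM in cMoP, 15.97 and 19.3 in GMP-MoP, 19.8 and 22.4 in proNeu1 and 18.8 and 16.6 in proNeu2 with the proNeu1 libraries inside the range of cMoP (log2 fold change 0.02 ± 0.27 SE, adjusted p = 0.953). Cxcl9, an interferon-induced attractant of T cells, had 30.1 and 30.6 CPM in cMoP, 30.5 and 28.9 in GMP-MoP, 34.7 and 32.6 in proNeu1 and 39.5 and 36.5 in proNeu2 at its only region (adjusted p = 0.622). By edgeR, 0 of the 6 regions were lower, 0 had an unadjusted p under 0.05 in that direction, and DESeq2 called 0 lower.

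For the interleukin 1 family and the inflammasome, 9 of 34 tested regions were lower in proNeu1 and 5 higher. These shares, 26.5% and 14.7%, were not far from the 21.9% and 20.6% of all regions. Il18, an interleukin 1 relative that caspase 1 cleaves to its active form, had 19.4 and 17.4 CPM in cMoP, 13.1 and 9.07 in GMP-MoP, 4.96 and 2.71 in proNeu1 and 4.26 and 4.65 in proNeu2 at its promoter region (chr9:50554585-50555389), printed above from its low-GC window. Every cMoP and GMP-MoP library was above every proNeu library (log2 fold change -2.25 ± 0.42 SE, adjusted p = 2.23e-06, kept). Nlrp3, the sensor that starts inflammasome assembly, had 40.3 and 34.8 CPM in cMoP, 31.2 and 24.4 in GMP-MoP, 14.9 and 14.2 in proNeu1 and 13.4 and 15.3 in proNeu2 at its promoter region (chr11:59541117-59543061). Here too the proNeu libraries were lowest (log2 fold change -1.36 ± 0.26 SE, adjusted p = 2.74e-06, kept). The promoter region of Casp1, which encodes caspase 1, had 32.8 and 35.4 CPM in cMoP, 40.7 and 49.9 in GMP-MoP, 33.3 and 24.4 in proNeu1 and 23.1 and 17.3 in proNeu2 and did not pass (log2 fold change -0.24 ± 0.22 SE, adjusted p = 0.394). Il18bp, the binding protein that blocks interleukin 18, had only 1 region, which held 1 to 10 reads in each library and was not tested.

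Il1b, interleukin 1 beta, had regions that moved in opposite directions. The region 42.8 kb before the start site (chr2:129413289-129414496) had 5.91 and 2.64 CPM in cMoP, 5.08 and 7.37 in GMP-MoP, 19.8 and 19.0 in proNeu1 and 29.8 and 23.9 in proNeu2. All 4 proNeu libraries were above all cMoP and GMP-MoP libraries (log2 fold change 2.17 ± 0.39 SE, adjusted p = 7.70e-07, kept). A region 9.6 kb before the start site had 24.2 and 18.5 CPM in cMoP, 18.9 and 16.4 in GMP-MoP, 13.5 and 9.50 in proNeu1 and 8.51 and 16.6 in proNeu2 and was lower in proNeu1 (log2 fold change -0.89 ± 0.31 SE, adjusted p = 0.0132). The fall ended without cMoP library 1 (adjusted p = 0.161), without proNeu1 library 2 (0.204) and with DESeq2 (0.147). The most open Il1b region, 10.7 kb after the start site and past the gene's end, had 25.3 and 25.9 CPM in cMoP, 21.1 and 21.0 in GMP-MoP, 33.3 and 35.9 in proNeu1 and 50.5 and 42.5 in proNeu2 (adjusted p = 0.109), and the promoter region had 6.45 and 5.81 CPM in cMoP and 9.92 and 7.46 in proNeu1 (adjusted p = 0.375). Il1a, interleukin 1 alpha, lies next to Il1b, and its most open region, 4.1 kb before the start site, had 8.60 and 8.97 CPM in cMoP, 10.2 and 9.07 in GMP-MoP, 15.6 and 16.3 in proNeu1 and 21.3 and 24.6 in proNeu2. Its rise was log2 fold change 0.85 ± 0.34 SE, adjusted p = 0.0352. The call ended without cMoP library 1 (adjusted p = 0.103), without cMoP library 2 (0.0930), without proNeu1 library 1 (0.0769), without proNeu1 library 2 (0.115), with DESeq2 (0.243) and with scaling by total counts.

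The antagonist and the receptors of interleukin 1 also split. Il1rn encodes the receptor antagonist. Its promoter region had 6.99 and 12.7 CPM in cMoP, 7.99 and 11.3 in GMP-MoP, 6.37 and 11.5 in proNeu1 and 7.90 and 13.9 in proNeu2 with overlapping groups (adjusted p = 0.819). Only a region 18.6 kb before the start site was higher (log2 fold change 1.07 ± 0.43 SE, adjusted p = 0.0348). This call ended without cMoP library 1 (adjusted p = 0.226), without proNeu1 library 1 (0.0859), without proNeu1 library 2 (0.105), with DESeq2 (0.252) and with scaling by total counts. Il1r2, the decoy receptor, had 1 lower and 1 higher region. It was lower at a region 4.9 kb before the start site (chr1:40080734-40081619) with 15.1 and 12.7 CPM in cMoP, 5.08 and 8.50 in GMP-MoP, 2.83 and 2.71 in proNeu1 and 6.08 and 1.99 in proNeu2. The cMoP libraries stood above the other 6 (log2 fold change -2.29 ± 0.49 SE, adjusted p = 3.06e-05, kept). The higher Il1r2 region, 26.5 kb before the start site, had 2.69 and 2.64 CPM in cMoP and 7.79 and 8.14 in proNeu1 (log2 fold change 1.55 ± 0.54 SE, adjusted p = 0.0130), and the rise ended without cMoP library 2 (adjusted p = 0.0597), without proNeu1 library 2 (0.0576) and with DESeq2 (0.143). The most open Il1r2 region had 18.8 and 13.7 CPM in cMoP, 13.8 and 17.6 in GMP-MoP, 18.4 and 15.6 in proNeu1 and 15.2 and 22.6 in proNeu2 and did not pass (adjusted p = 0.885). Il1r1, the signalling receptor, had 4 lower and 1 higher region of 8, and each of these calls ended when 1 library was left out. The most open of them, inside the gene (chr1:40294457-40295738), had 33.9 and 29.0 CPM in cMoP, 38.5 and 21.0 in GMP-MoP, 17.0 and 18.3 in proNeu1 and 10.3 and 9.29 in proNeu2 and was lower (log2 fold change -0.83 ± 0.26 SE, adjusted p = 0.00517). The fall ended without cMoP library 1 (adjusted p = 0.0655), without proNeu1 library 1 (0.0583) and with DESeq2 (0.103).

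Of 17 tested regions in the interleukin 6 family, 5 were lower in proNeu1 and 4 higher. These shares, 29.4% and 23.5%, were not far from the 21.9% and 20.6% of all regions. Il6st encodes gp130, the signalling receptor subunit shared by the family. Its region 24.1 kb before the start site (chr13:112439288-112440690) had 66.1 and 71.8 CPM in cMoP, 63.2 and 46.5 in GMP-MoP, 19.8 and 35.9 in proNeu1 and 26.1 and 15.3 in proNeu2. Every cMoP and GMP-MoP library exceeded every proNeu library (log2 fold change -1.30 ± 0.20 SE, adjusted p = 1.15e-08, kept). A region 46.6 kb after the start site (chr13:112510134-112511185) had 17.7 and 17.9 CPM in cMoP, 7.26 and 10.2 in GMP-MoP, 1.42 and 4.07 in proNeu1 and 3.04 and 1.33 in proNeu2 (log2 fold change -2.65 ± 0.46 SE, adjusted p = 2.88e-07, kept). At the Il6st promoter region the values were 58.1 and 50.7 CPM in cMoP and 40.4 and 38.0 in proNeu1. That smaller fall (log2 fold change -0.47 ± 0.19 SE, adjusted p = 0.0366) ended without cMoP library 1 (adjusted p = 0.225), without proNeu1 library 1 (0.116), without proNeu1 library 2 (0.214), without proNeu2 library 1 (0.0688), without proNeu2 library 2 (0.0691), with DESeq2 (0.175), with no filter on low counts and with the proNeu2 libraries summed. Il6 itself had 8.60 and 19.5 CPM in cMoP, 13.8 and 18.1 in GMP-MoP, 5.67 and 6.78 in proNeu1 and 3.04 and 1.99 in proNeu2 at its promoter region (chr5:30012826-30013676), over the window with NF-kB, C/EBP and AP-1 letters. The cMoP libraries differed by more than the lower of them differed from proNeu1. The fall was log2 fold change -1.17 ± 0.40 SE, adjusted p = 0.0114 and ended without cMoP library 2 (adjusted p = 0.569), without proNeu1 library 1 (0.0997) and with DESeq2 (0.151).

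Il6ra encodes the chain that binds interleukin 6. Its promoter region rose, with 31.7 and 26.9 CPM in cMoP, 22.5 and 30.6 in GMP-MoP, 43.9 and 42.7 in proNeu1 and 45.6 and 47.1 in proNeu2 (log2 fold change 0.56 ± 0.21 SE, adjusted p = 0.0222). The rise ended without cMoP library 2 (adjusted p = 0.140), without proNeu1 library 1 (0.0679), without proNeu1 library 2 (0.0533), with DESeq2 (0.230), with scaling by total counts and with loess scaling. The most open Il6ra region, 1.8 kb after the start site, had 55.4 and 58.1 CPM in cMoP and 39.0 and 46.8 in proNeu1 and did not pass (adjusted p = 0.0720). Osm, oncostatin M, a family cytokine made by neutrophils and macrophages, had 21.5 and 23.8 CPM in cMoP, 27.6 and 36.3 in GMP-MoP, 46.7 and 45.4 in proNeu1 and 46.2 and 63.1 in proNeu2 at the region in its gene (chr11:4236157-4238213). The proNeu libraries were the highest (log2 fold change 1.02 ± 0.22 SE, adjusted p = 3.87e-05, kept). The neighbouring Lif gene, for leukaemia inhibitory factor, had 18.8 and 14.8 CPM in cMoP, 26.9 and 23.2 in GMP-MoP, 13.5 and 23.7 in proNeu1 and 12.2 and 15.3 in proNeu2 at its most open region, with no call (adjusted p = 0.696), and 1 higher and 1 lower region elsewhere. Both of those calls ended when 1 library was left out.

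Of 23 tested regions of the interleukin 12 family and Il15, 6 were lower and 0 higher by edgeR, with 0 higher at an unadjusted p under 0.05 and 0 higher by DESeq2. The lower share, 26.1%, was near the 21.9% of all regions, of which 20.6% were higher. Il12b encodes the p40 subunit shared by interleukins 12 and 23. Its most open region, 44.3 kb before the start site (chr11:44354652-44356874), had 26.9 and 32.2 CPM in cMoP, 16.7 and 22.1 in GMP-MoP, 9.92 and 14.9 in proNeu1 and 17.0 and 13.9 in proNeu2. The cMoP libraries were above all 4 proNeu libraries (log2 fold change -1.24 ± 0.28 SE, adjusted p = 0.000104, kept). A region 17.7 kb before the start site (chr11:44381946-44382764) had 11.3 and 10.03 CPM in cMoP, 5.81 and 10.2 in GMP-MoP, 2.12 and 1.36 in proNeu1 and 0.608 and 1.99 in proNeu2 (log2 fold change -2.57 ± 0.58 SE, adjusted p = 0.000101, kept). The region nearest the Il12b start, 1.0 kb before the start site, did not follow: it had 16.1 and 16.4 CPM in cMoP and 16.3 and 17.0 in proNeu1 (adjusted p = 0.940). Il12a, the p35 subunit, had 57.0 and 50.7 CPM in cMoP and 48.9 and 54.9 in proNeu1 at its most open region (adjusted p = 0.846), and 1 lower region elsewhere. That lower call passed in only 4 of the 15 alternative fits. Il23a, the p19 subunit, had 21.5 and 20.1 CPM in cMoP, 18.2 and 14.7 in GMP-MoP, 19.1 and 26.5 in proNeu1 and 21.9 and 21.9 in proNeu2 at its only region, with no call (adjusted p = 0.704). Il15, a survival factor of NK and memory T cells, fell at a region inside the gene (chr8:82370558-82371207) with 13 and 26 reads in cMoP, 9 and 13 in GMP-MoP, 0 and 3 in proNeu1 and 2 and 0 in proNeu2. The ratio of cMoP to proNeu1 was 9.99 (95% exact counting interval 3.18 to 50.55; adjusted p = 2.59e-05, kept). The most open Il15 region had 42.5 and 42.2 CPM in cMoP and 36.1 and 31.2 in proNeu1 and did not pass (adjusted p = 0.192).

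The genes of prostaglandin synthesis were split by gene. Ptgs2, the inducible cyclooxygenase COX-2, had a lower region 43.7 kb after the start site (chr1:150143304-150144249) with 22.6 and 30.1 CPM in cMoP, 16.7 and 14.2 in GMP-MoP, 2.83 and 4.07 in proNeu1 and 1.22 and 3.319 in proNeu2. The cMoP libraries were the highest and the proNeu libraries the lowest, without overlap (log2 fold change -2.90 ± 0.40 SE, adjusted p = 1.12e-10, kept). Beside it, a region 45.3 kb after the start site had 24 and 23 reads in cMoP, 3 and 12 in GMP-MoP, 0 and 2 in proNeu1 and 1 and 0 in proNeu2, a ratio of cMoP to proNeu1 of 18.1 (95% exact counting interval 4.73 to 153.5; adjusted p = 4.38e-07, kept). The Ptgs2 promoter region had 29.6 and 27.98 CPM in cMoP, 19.6 and 28.9 in GMP-MoP, 19.8 and 14.9 in proNeu1 and 18.2 and 17.3 in proNeu2. Its fall was log2 fold change -0.73 ± 0.26 SE, adjusted p = 0.0166 and ended without cMoP library 1 (adjusted p = 0.0796), without cMoP library 2 (0.0522), without proNeu1 library 2 (0.234) and with DESeq2 (0.146). Ptges, the prostaglandin E synthase that acts after it, was higher in proNeu1 at all 3 of its regions. They lay 24.2, 26.0 and 31.0 kb before the listed start site, and none overlapped a listed promoter window. The gene interval extends past that start site, however. Those at 24.2 and 26.0 kb lay inside the interval and the one at 31.0 kb lay 2.94 kb outside it. They may thus lie near a start of the gene that is not listed, which was not tested. The Ptges region with the smallest adjusted p (chr2:30927103-30927871) had 4.30 and 5.81 CPM in cMoP, 10.2 and 12.5 in GMP-MoP, 15.6 and 23.1 in proNeu1 and 20.7 and 17.9 in proNeu2. Each proNeu library was above each cMoP library (log2 fold change 1.92 ± 0.37 SE, adjusted p = 5.48e-06, kept). The most open Ptges region had 36.6 and 30.1 CPM in cMoP, 33.4 and 27.2 in GMP-MoP, 45.3 and 51.5 in proNeu1 and 56.5 and 72.4 in proNeu2 (log2 fold change 0.54 ± 0.20 SE, adjusted p = 0.0211). This call ended without cMoP library 2 (adjusted p = 0.156), without proNeu1 library 2 (0.132), with DESeq2 (0.223), with scaling by total counts and with loess scaling.

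Csf1 encodes M-CSF, the growth factor of monocytes and macrophages, and its upstream chromatin changed in both directions over short distances. The region 17.7 kb before the start site (chr3:107777645-107778689) had 24.2 and 23.8 CPM in cMoP, 13.1 and 11.9 in GMP-MoP, 4.25 and 2.71 in proNeu1 and 4.26 and 3.98 in proNeu2. The 3 groups cMoP, GMP-MoP and proNeu1 stood in that order without overlap, and proNeu1 was lower than cMoP by log2 fold change -2.76 ± 0.40 SE, adjusted p = 1.46e-09, kept. The region 30.9 kb before the start site (chr3:107790896-107791741) had 0.538 and 2.64 CPM in cMoP, 0.726 and 5.67 in GMP-MoP, 12.7 and 8.14 in proNeu1 and 14.6 and 9.96 in proNeu2, and proNeu1 was higher (log2 fold change 2.64 ± 0.57 SE, adjusted p = 4.43e-05, kept). Between them, the region 23.0 kb before the start site was higher too, with 10.2 and 11.1 CPM in cMoP, 7.26 and 6.80 in GMP-MoP, 21.95 and 18.3 in proNeu1 and 20.1 and 25.9 in proNeu2 (log2 fold change 0.91 ± 0.31 SE, adjusted p = 0.0123). The rise ended without cMoP library 1 (adjusted p = 0.0589), without proNeu1 library 1 (0.0963) and with DESeq2 (0.176). The promoter region of Csf1 had 22.6 and 15.3 CPM in cMoP, 23.2 and 21.0 in GMP-MoP, 23.4 and 20.3 in proNeu1 and 24.9 and 17.3 in proNeu2 with overlapping groups (adjusted p = 0.566).

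**Figure D4:**
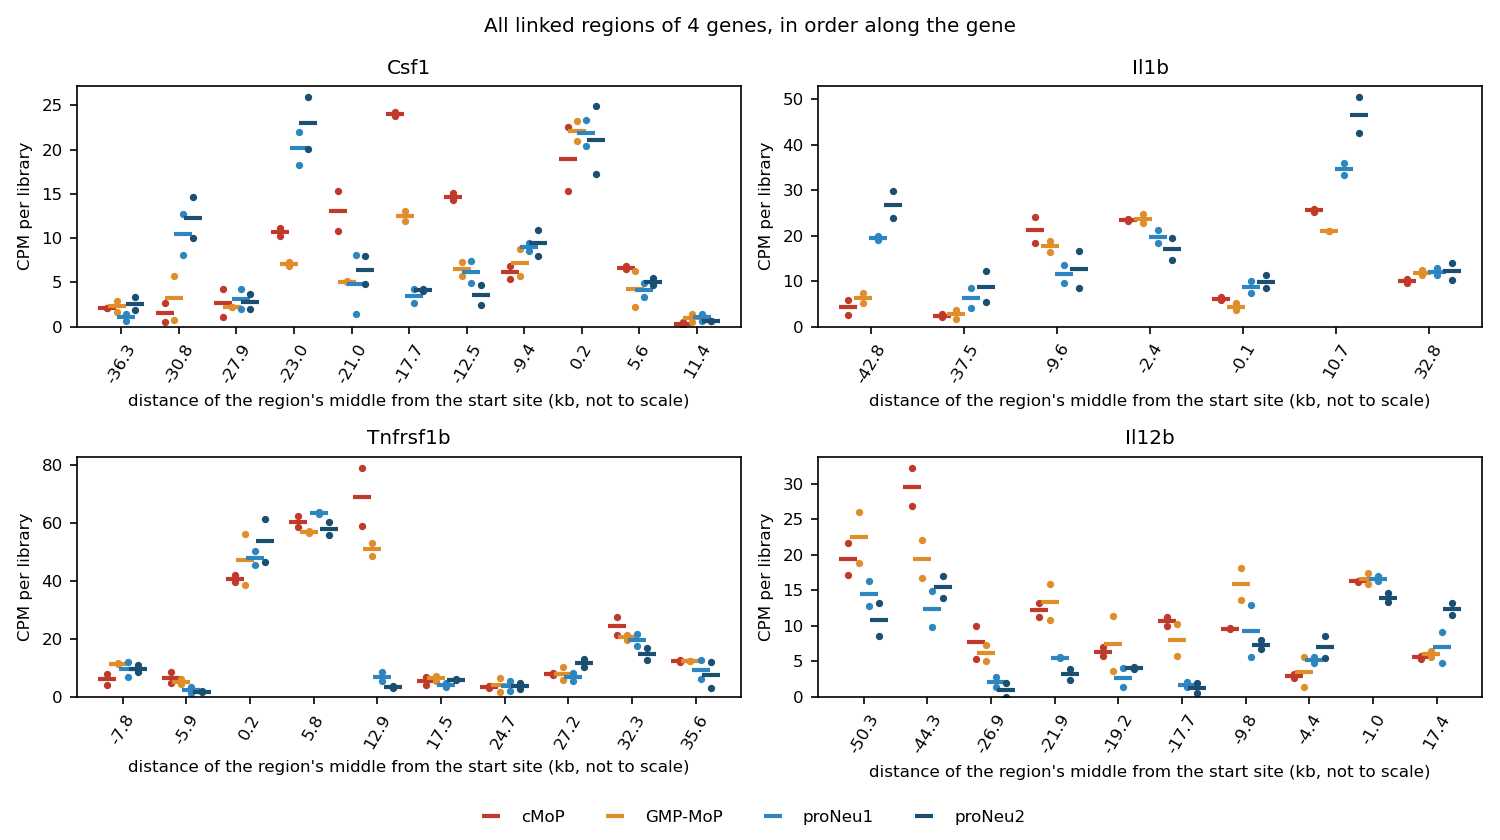
CPM in each library (points) and group mean (bars) for every linked region of Csf1, Il1b, Tnfrsf1b and Il12b, tested or not, ordered by distance from the start site, which is written under each region in kb and is not to scale. In Csf1 the region 17.7 kb before the start is highest in cMoP and those 23.0 and 30.8 kb before it are highest in the proNeu groups, and in Tnfrsf1b the region at 12.9 kb is far lower in the proNeu groups while those at 0.2 and 5.8 kb did not pass the test.

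GMP-MoP differed from proNeu1 in 41 of the 159 member regions. In GMP-MoP, 25 were higher and 16 lower, where the whole table had 11.6% higher and 12.5% lower. These are 15.7% and 10.1% of member regions, and the median log2 fold change was 0.15 over members and 0.01 over all regions. Scaling by total counts gave 30 higher and 11 lower. In 1 called region the libraries of the 2 groups overlapped. Among all 159 tested member regions, called or not, 62 stood apart with GMP-MoP higher and 42 with GMP-MoP lower. Here too the share over all regions was not computed, and no difference is read from these counts. Of the calls, 5 were kept in all 15 alternatives, 6 passed with DESeq2 and 31 ended when 1 library was left out. This comparison shares its proNeu1 libraries with the one above. The genes with only higher calls were 14, among them Casp1, Ccl2, Il6, Il12b, Il18 and Nlrp3. There were 11 with only lower calls, among them Ccl3, Cxcl1, Cxcl3, Tnf and Tnfrsf1a, and 3 with both. Of the 40 genes, 17 had a higher and 14 a lower call, beside about 3028 and 4342 of 14612 genes in the whole table.

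The 5 kept calls were all higher in GMP-MoP. At Tnfrsf1b, the region inside the gene given above had 53.0 and 48.8 CPM in GMP-MoP and 8.50 and 5.43 in proNeu1 (log2 fold change 2.86 ± 0.29 SE, adjusted p = 9.85e-16). At the Inhba region 35.01 kb before the start site, 49 reads in GMP-MoP stood against 2 in proNeu1, a ratio of 22.5 (95% exact counting interval 5.91 to 191; adjusted p = 3.43e-08). The Tgfb1 region past the end of the gene had 35.6 and 37.4 CPM in GMP-MoP and 14.2 and 12.9 in proNeu1 (log2 fold change 1.43 ± 0.27 SE, adjusted p = 1.43e-05). The Ptgs2 region 43.7 kb after the start site had 16.7 and 14.2 CPM in GMP-MoP and 2.83 and 4.07 in proNeu1 (log2 fold change 2.12 ± 0.46 SE, adjusted p = 0.000140). The last was a Ccl2 region 27.96 kb from the gene interval (chr11:82006592-82007614), with 26.3 and 31.1 CPM in cMoP, 42.1 and 35.7 in GMP-MoP, 14.2 and 17.0 in proNeu1 and 11.6 and 17.3 in proNeu2. There the GMP-MoP libraries were above those of cMoP as well, and above proNeu1 by log2 fold change 1.30 ± 0.26 SE, adjusted p = 3.45e-05.

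Other regions with small adjusted p in this comparison were not kept. The Il6st region 24.1 kb before the start site was higher in GMP-MoP (log2 fold change 0.95 ± 0.22 SE, adjusted p = 0.000330) and ended without proNeu1 library 1 (adjusted p = 0.0956) and with DESeq2 (0.0506). Tgfbr1 was lower at its promoter region, with 61.7 and 65.2 CPM in GMP-MoP and 94.2 and 112 in proNeu1 (log2 fold change -0.70 ± 0.16 SE, adjusted p = 0.000321). It ended with loess scaling. The Il1b region 42.8 kb before the start site was lower, with 5.08 and 7.37 CPM in GMP-MoP and 19.8 and 19.0 in proNeu1 (log2 fold change -1.60 ± 0.37 SE, adjusted p = 0.000457). It ended with DESeq2 (adjusted p = 0.0566).

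Casp1, Tnf and Tnfrsf1a, which had no called region between proNeu1 and cMoP, had one here; whether the comparisons differ was not tested. Casp1 was higher in GMP-MoP at its promoter region (40.7 and 49.9 CPM in GMP-MoP and 33.3 and 24.4 in proNeu1; log2 fold change 0.67 ± 0.22 SE, adjusted p = 0.0157). This call ended without GMP-MoP library 2 (adjusted p = 0.266), without proNeu1 library 2 (0.257) and with DESeq2 (0.219). Tnf was lower at its most open region, with 14.5 and 14.7 CPM in GMP-MoP and 26.2 and 28.5 in proNeu1 (log2 fold change -0.90 ± 0.28 SE, adjusted p = 0.0107). It ended without GMP-MoP library 2 (adjusted p = 0.0886), without proNeu1 library 2 (0.0845) and with DESeq2 (0.181). Tnfrsf1a was lower at its promoter region (log2 fold change -0.61 ± 0.20 SE, adjusted p = 0.0156). It ended without GMP-MoP library 2 (adjusted p = 0.171), without proNeu1 library 1 (0.287), with DESeq2 (0.216), with scaling by total counts and with loess scaling. The Il6 promoter region was also higher in GMP-MoP, with 13.8 and 18.1 CPM in GMP-MoP and 5.67 and 6.78 in proNeu1 (log2 fold change 1.37 ± 0.40 SE, adjusted p = 0.00598). This ended without GMP-MoP library 2 (adjusted p = 0.144), without proNeu1 library 1 (0.0652) and with DESeq2 (0.183). An Inhba region inside the gene (chr13:16018786-16019328) held 3 reads in GMP-MoP and 21 in proNeu1, a ratio of 7.62 of proNeu1 to GMP-MoP (95% exact counting interval 2.27 to 39.9; adjusted p = 0.00281). It ended without GMP-MoP library 2 (adjusted p = 0.0961) and with DESeq2 (0.103).

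Few of these regions differed between GMP-MoP and cMoP. Of 159 regions, 7 were lower in GMP-MoP and 0 higher, where the whole table had 3.47% lower and 1.98% higher. At an unadjusted p under 0.05, edgeR had 24 lower and 12 higher, or 15.1% and 7.55%, beside 10.8% and 7.52% of all regions. DESeq2 called 0 member regions in either direction, and over all regions only 4 lower and 33 higher. The 7 regions belong to Ccl2, Csf1, Ptgs2 and Tnfsf9, and in each the libraries of the groups did not overlap. None was kept. Among all 159 tested member regions, called or not, 49 stood apart with GMP-MoP lower and 23 with GMP-MoP higher. Without the share over all regions, which was not computed, no difference is read from these counts. The Ccl2 region 13.5 kb from the gene interval had 40 reads in cMoP and 5 in GMP-MoP (log2 fold change -2.69 ± 0.62 SE, adjusted p = 0.00176). Its call ended without GMP-MoP library 1 (adjusted p = 0.0742), without cMoP library 2 (0.128), with DESeq2 (0.539) and with loess scaling. In the Ccl2 gene the values were 13.1 and 12.5 CPM in GMP-MoP and 26.9 and 25.3 in cMoP (log2 fold change -1.03 ± 0.29 SE, adjusted p = 0.0147), and the call ended without GMP-MoP library 1 (adjusted p = 0.0770), without GMP-MoP library 2 (0.164), without cMoP library 1 (0.123), without cMoP library 2 (0.0970) and with DESeq2 (0.805).

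Of the 3 lower Csf1 regions, the one 17.7 kb before the start site had 13.1 and 11.9 CPM in GMP-MoP and 24.2 and 23.8 in cMoP (log2 fold change -0.94 ± 0.29 SE, adjusted p = 0.0334). Its call ended without GMP-MoP library 1 (adjusted p = 0.117), without GMP-MoP library 2 (0.257), without cMoP library 1 (0.165), without cMoP library 2 (0.176), without proNeu2 library 1 (0.0534), without proNeu2 library 2 (0.0528), with DESeq2 (0.861), with no filter on low counts, in a fit of these groups alone and with the proNeu2 libraries summed. The Csf1 region 21.0 kb before the start site had 5.08 and 5.102 CPM in GMP-MoP and 10.8 and 15.3 in cMoP (log2 fold change -1.34 ± 0.42 SE, adjusted p = 0.0326). It ended without GMP-MoP library 1 (adjusted p = 0.145), without GMP-MoP library 2 (0.208), without cMoP library 2 (0.350), with DESeq2 (0.857) and in a fit of these groups alone. The Csf1 region 12.5 kb before the start site had 7.26 and 5.67 CPM in GMP-MoP and 15.1 and 14.3 in cMoP (log2 fold change -1.19 ± 0.38 SE, adjusted p = 0.0417). It ended without GMP-MoP library 1 (adjusted p = 0.112), without GMP-MoP library 2 (0.326), without cMoP library 1 (0.179), without cMoP library 2 (0.165), without proNeu2 library 1 (0.0576), without proNeu2 library 2 (0.0577), with DESeq2 (0.863), with scaling by total counts, with no filter on low counts, in a fit of these groups alone and with the proNeu2 libraries summed. In all 3 the cMoP libraries were above those of GMP-MoP. Tnfsf9 was lower at a region 8.2 kb from the gene interval (chr17:57095859-57097114), with 36.6 and 27.4 CPM in cMoP, 18.9 and 17.6 in GMP-MoP, 14.9 and 14.9 in proNeu1 and 8.51 and 11.3 in proNeu2. The cMoP libraries were the highest of the 8 (log2 fold change -0.81 ± 0.25 SE, adjusted p = 0.0296), and the call ended without GMP-MoP library 1 (adjusted p = 0.109), without GMP-MoP library 2 (0.243), without cMoP library 1 (0.372), without cMoP library 2 (0.0519), without proNeu2 library 1 (0.0519), without proNeu2 library 2 (0.0512), with DESeq2 (0.800), with no filter on low counts, in a fit of these groups alone and with the proNeu2 libraries summed. The Ptgs2 region 45.3 kb after the start site had 15 reads in GMP-MoP and 47 in cMoP (log2 fold change -1.38 ± 0.45 SE, adjusted p = 0.0448). This call ended without GMP-MoP library 1 (adjusted p = 0.406), without cMoP library 1 (0.260), without cMoP library 2 (0.249), with DESeq2 (0.928), with scaling by total counts, with loess scaling, in a fit of these groups alone and with the proNeu2 libraries summed.

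No member region passed between proNeu2 and proNeu1, with 0 of 159 higher and 0 lower by edgeR. Among all 47506 regions 0.00842% were higher in proNeu2 and 0.0674% lower. At an unadjusted p under 0.05 there were 3 higher and 5 lower member regions, and DESeq2 called 0 in both directions. The unadjusted shares were 1.9% and 3.1% of members, below the 4.1% and 5.3% of all regions. The median log2 fold change was -0.01 for members and -0.01 for all regions. At the regions given above, the values of proNeu2 can be read beside those of proNeu1, as for Tnfrsf1b inside the gene, where both groups were low.

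Another 79 genes of the same families, of inflammasome assembly and of prostaglandin and leukotriene synthesis gave 238 tested regions at 66 genes. Between proNeu1 and cMoP, 61 of these were lower in proNeu1 and 44 higher, or 25.6% and 18.5%, beside 21.9% and 20.6% of all regions. The lower ones included Aim2, a DNA sensor of another inflammasome, at a region inside the gene (40.3 and 46.4 CPM in cMoP, 11.3 and 6.10 in proNeu1; log2 fold change -2.31 ± 0.28 SE, adjusted p = 8.34e-13), and Pla2g4a, the phospholipase that releases arachidonic acid for cyclooxygenases (27.95 and 21.6 CPM in cMoP, 2.12 and 1.36 in proNeu1; log2 fold change -3.78 ± 0.47 SE, adjusted p = 1.55e-12). Il16, a chemoattractant of CD4+ cells, was higher inside its gene (4.30 and 4.22 CPM in cMoP, 27.6 and 23.7 in proNeu1; log2 fold change 2.57 ± 0.36 SE, adjusted p = 3.39e-10). Between GMP-MoP and proNeu1, 27 were higher and 23 lower, or 11.3% and 9.66%, beside 11.6% and 12.5% of all regions. Between GMP-MoP and cMoP 2 were higher and 7 lower, or 0.84% and 2.94%, beside 1.98% and 3.47% of all regions. Of the 2 higher ones, Ptgs1, the constitutive cyclooxygenase COX-1, was higher in GMP-MoP at its promoter region, with 87.9 and 93.5 CPM against 49.5 and 45.4 in cMoP (log2 fold change 0.94 ± 0.16 SE, adjusted p = 1.60e-05). The alternative fits were not summarised for these regions of Aim2, Pla2g4a, Il16 and Ptgs1.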

How the data were processed

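Chromatin accessibility was measured by ATAC-seq in 8 libraries, 2 in each of 4 groups, grouped by the labels. The authors deposited, for each library, whole-number read counts over 61196 shared regions on mm10, and these counts were used as deposited. Bowtie2 2.3.5.1, HOMER 4.11, edgeR 3.32.1 and mm10 are named per the submitters' processing notes; which step each tool did, how duplicates were handled and whether reads were shifted for the transposase was not given in the sources used here, and the last of these could move reads across region edges.

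Regions were linked to the nearest RefSeq protein-coding gene within 50 kb on GRCm38.p6. Counts were scaled with TMM and tested with edgeR 4.0.16 (R 4.3.3) quasi-likelihood F tests, with robust dispersion, all 8 libraries in 1 fit with a mean for each group, and the filterByExpr filter at a minimum count of 10. P-values were adjusted by Benjamini-Hochberg over 47506 regions, with a threshold of 0.05. Where a group held 3 reads or fewer at a region, the ratio of counts is given with an exact 95% interval, which covers counting error only. Errors are standard errors of the fit. The scripts were tested on simulated data.

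The text names each member gene by its most open region (highest mean CPM over the 8 libraries) and the 8 regions of smallest adjusted p in each comparison. The members, gene lists and tests were chosen with earlier results of these data known. The alternatives were total-count and loess scaling (limma 3.58.1), DESeq2 1.42.0, no filter, a replicate block, leaving out each library, fits of 2 groups alone, links within 10 kb, a minimum change of 2 fold and, chosen after seeing the data, the proNeu2 libraries summed into 1 because over regions of 80 or more counts they differed by about the sampling noise (chi-square per degree of freedom 1.01).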

Additional observations from a re-analysis of the deposited data

How the results depend on the processing

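No called member region changed direction in any of the 15 alternative fits. Medians over all regions, all near 0, did change sign under some scalings, as for proNeu1 against cMoP from 0.02 to -0.08 with total counts and -0.03 with DESeq2. For GMP-MoP against cMoP, the count of higher member regions went from 0 to 1 with no filter. The count of lower ones went from 7 to 0 with DESeq2, 4 with no filter, 2 in a fit of these groups alone, 3 with the proNeu2 libraries summed and 2 with links within 10 kb, whether by nearest gene or any gene; leaving out 1 library gave 0 to 7. For GMP-MoP against proNeu1, the higher count went from 25 to 5 with DESeq2, 14 with the nearest gene within 10 kb and 16 with any gene within 10 kb, and leaving out 1 library gave 12 to 25. The lower count went from 16 to 1 with DESeq2 and 7 with a minimum change of 2 fold, and leaving out 1 library gave 8 to 16. For proNeu1 against cMoP, the higher count went from 21 to 6 with DESeq2, and leaving out 1 library gave 14 to 23. The lower count went from 49 to 21 with DESeq2 and 30 with the nearest gene within 10 kb, and leaving out 1 library gave 32 to 49. Fewer regions enter under the 10 kb links and fewer libraries when 1 is left out; the cause of the other changes was not tested.

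With the replicate block, the counts higher and lower were 0 and 7, 24 and 17, 21 and 49, and 0 and 0 in the same order of comparisons with proNeu2 against proNeu1 last. The replicate numbers are not shown to pair libraries: the deviations of same-numbered libraries from their group means correlated at -0.01 to 0.08 over regions. With 2 libraries a group and a median of 135 reads over all 8 libraries in a tested member region, 40 of the 199 regions were too low to test.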
